A study of Capra hircus with 6 samples.

Results

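PSMD6, PSMD8, PSMC2 and PSMB4 encode subunits of the 26S proteasome, and their mRNA was measured in goat (Capra hircus) 8-cell embryos after knockdown of YBX1, an RNA-binding protein of the Y-box family. The 4 genes were found by symbol among the 5154 genes of the deposited FPKM table, through the pairs of identifier and symbol in the skipped exon sheet of the study's supplementary splicing table. Those pairs name 456 genes of the table (8.85%). The study lists there the splicing events that differed between YBX1 knockdown embryos and controls. Having a symbol was therefore a further selection by this contrast, and splicing itself was not analysed here. The identifiers are ENSCHIG00000024309 for PSMD6, ENSCHIG00000026335 for PSMD8, ENSCHIG00000015309 for PSMC2 and ENSCHIG00000019694 for PSMB4.

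The embryos came from in vitro fertilization. Zygotes were injected with siRNA against YBX1 in the knockdown group or with a universal negative control siRNA in the control group, cultured in vitro and lysed as pools of embryos at the 8-cell stage. There were 3 libraries in each group, numbered as in their titles, made with Smart-seq2, which amplifies full-length cDNA from very little RNA without molecular identifiers. The knockdown is by siRNA and so leaves the gene intact, no animal or embryo is given for a library, and p-values measure the spread between these pools, which may be technical. YBX1 itself was not analysed here, so the labels were not checked against the targeted gene.

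The 26S proteasome degrades proteins that carry chains of ubiquitin. Its core is a stack of alpha and beta rings that holds the proteolytic sites, its base is a ring of ATPases that unfolds the substrate and feeds it into the core, and its lid removes the ubiquitin. PSMD6 (Rpn7) and PSMD8 (Rpn12) are structural lid subunits, PSMC2 (Rpt1) is an ATPase of the base, and PSMB4 (beta 7) is a beta ring subunit without a proteolytic site. In an assembled particle these subunits are present in equal numbers within the lid, the base ring or a beta ring. At the 8-cell stage the goat embryo passes from maternal to zygotic control, when stored maternal mRNA and protein are removed.

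FPKM corrects a gene's fragments for its length and for library depth, and gives levels as a share of the library and not as RNA per embryo. Comparisons between libraries also depend on how the libraries are scaled to each other, which is given below. Fewer cells with a transcript and less transcript per cell cannot be told apart in pooled embryos. The library totals, recovered from the steps between FPKM values, lay between 10354990 and 12688297 fragments. The lengths behind the FPKM values were 1455 bases for PSMD6, 2890 for PSMD8, 1302 for PSMC2 and 958 for PSMB4. The 4 genes had at least 194 fragments in every library, and the number of fragments alone would give a coefficient of variation between 1.78% and 5.86% in a group. This covers counting error only, since PCR copies are not independent molecules. Control 3 stood apart from the other controls, at a Euclidean distance of 64.5 and 71.9 on the log2(FPKM + 1) scale over 4500 genes against 52.3 between controls 1 and 2. It was also the control nearest to each knockdown library. Every gene of the table had passed the authors' thresholds for this same contrast. The direction of each subunit's change was therefore part of how the table was made, and the tests of single genes describe the size of a change and its error rather than discover it.

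PSMD6 and PSMC2 fell in YBX1 knockdown embryos, to about 0.339 and 0.401 of their mean FPKM in the controls. PSMB4 and PSMD8 were also lower on average, at 0.565 and 0.421 of the control mean, but neither passed both thresholds used here. Both had passed the authors' own thresholds, as had every gene of the table. Genes were called when the Benjamini-Hochberg adjusted p from limma, over the 4500 genes whose FPKM averaged 1 or more, was under 0.05 and the log2 fold change on the log2(FPKM + 1) scale was beyond 1 or -1. Of the 4 subunits 2 were called lower, where 56.2% of all genes tested were called lower. The median log2 fold change of all genes tested was -1.24, and those of the 4 subunits lay from -1.55 to -0.82.

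**Figure D1:**
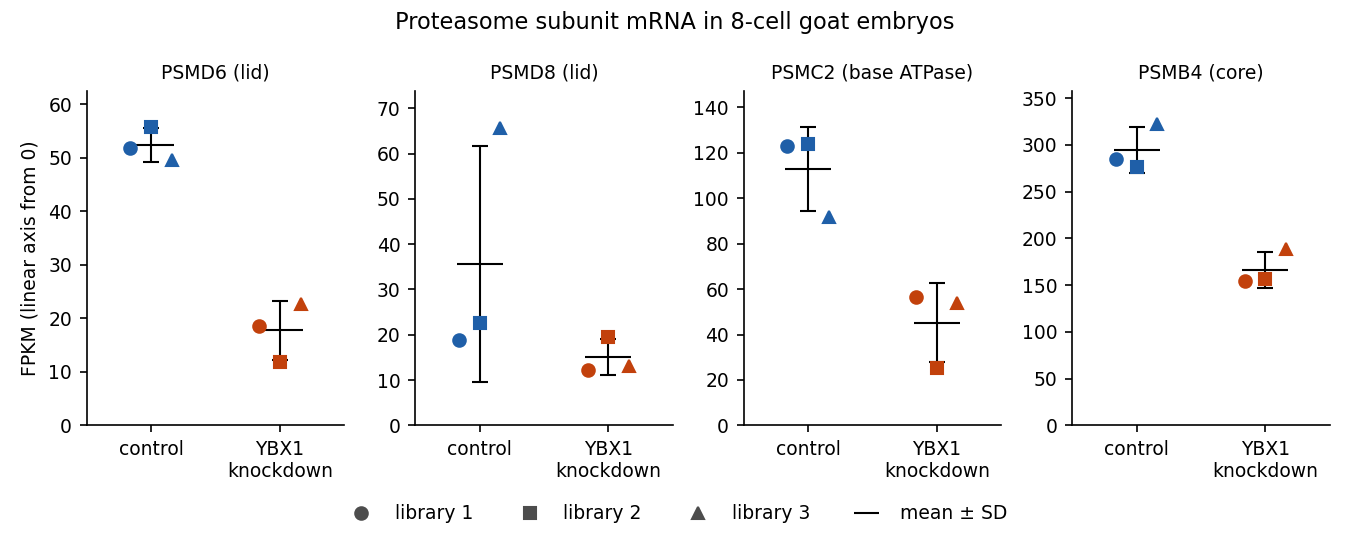
FPKM of each subunit (linear axes from 0) in the 3 control and 3 YBX1 knockdown libraries, with symbols for the library number and the mean ± SD in black. The groups are apart in PSMD6, PSMC2 and PSMB4, while in PSMD8 control 3, at 65.6 FPKM, lies above all others and knockdown library 2 lies above control 1.

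The lid subunit PSMD6 had 51.8, 55.7 and 49.5 FPKM in controls 1, 2 and 3, and 18.6, 11.9 and 22.8 FPKM in knockdown libraries 1, 2 and 3. The controls lay close together, and every knockdown library was below every control. The mean fell from 52.3 ± 3.16 to 17.7 ± 5.47 FPKM (SD, n = 3 each). On the log2(FPKM + 1) scale the change was -1.55 ± 0.39 (standard error), with an adjusted p of 0.00406 from limma. Of the genes called lower, 71.3% fell further than PSMD6.

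The other lid subunit of the set, PSMD8, had 18.9, 22.5 and 65.6 FPKM in the controls and 12.3, 19.5 and 13.1 FPKM after knockdown. The groups overlapped, and the control mean was set by control 3, which held 3.17 times the mean of the other controls. A larger ratio of control 3 to the other controls was found in 4.76% of the genes tested. The mean was 35.7 ± 26.0 FPKM in the controls and 15.0 ± 3.96 FPKM after knockdown (SD, n = 3 each). The log2 fold change was -1.003 ± 0.50 (standard error), with an adjusted p of 0.0700 from limma. Without control 3 the log2 fold change was -0.46 (adjusted p = 0.264 from limma), and without control 1 it was -1.33 (adjusted p = 0.0427 from limma), so that the call depended on single controls.

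The base ATPase PSMC2 had 123, 124 and 91.6 FPKM in the controls and 56.5, 25.4 and 53.9 FPKM after knockdown. Control 3 was the lowest control and knockdown library 2 the lowest of all, and the groups did not overlap. The mean fell from 113 ± 18.4 to 45.3 ± 17.2 FPKM (SD, n = 3 each). This was a log2 fold change of -1.37 ± 0.42 (standard error), with an adjusted p of 0.0102 from limma. Without knockdown library 2 it was -1.005 (adjusted p = 0.0532 from limma) and was no longer called.

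The core subunit PSMB4 was the most abundant of the 4, with 285, 276 and 323 FPKM in the controls and 154, 156 and 189 FPKM after knockdown. The groups did not overlap, as in PSMD6 and PSMC2, so that 3 of the 4 subunits were lower in each knockdown library than in any control, a pattern held by 57.8% of all genes tested. The mean was 295 ± 24.8 FPKM in the controls and 166 ± 19.5 FPKM after knockdown (SD, n = 3 each). The log2 fold change of -0.82 ± 0.37 (standard error), with an adjusted p of 0.0485 from limma, did not reach the fold threshold.

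These values depended on how the libraries were scaled to each other. The scalings could only be computed over this table, in which most genes were lower after knockdown, and they raised the log2 fold changes of all genes tested by a median of 0.62 with an equal FPKM sum, 0.66 with quantile normalization and 0.86 with the median of ratios. In the same order, PSMD6 was then at -0.86, -1.07 and -0.59, and PSMC2 at -0.66, -0.85 and -0.38. PSMD6 with quantile normalization was the only one of these 6 values that was called. PSMD8 was at -0.32, -0.51 and -0.056. PSMB4 was at -0.11, -0.098 and 0.17, so that its direction turned with the last of them, computed here over called genes alone. In the authors' own DESeq2 results PSMB4, like every gene of the table, was past a fold threshold of 1 on the log2 scale. That is a larger change than any of the values given here for PSMB4.

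**Figure D2:**
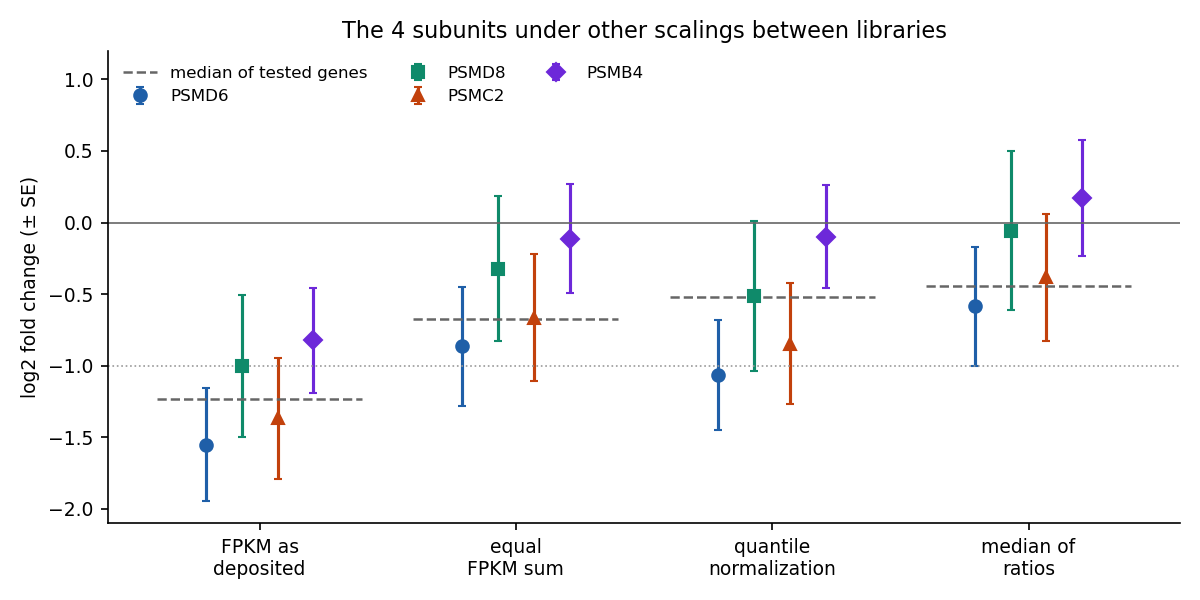
Log2 fold change of the 4 subunits (± standard error from limma) with FPKM as deposited and under 3 other scalings between libraries, with the median of all genes tested as a dashed line and the fold threshold of -1 dotted. All 4 subunits move up together with the median, PSMD6 stays lowest and PSMB4 stays highest.

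In levels per length, PSMB4 was first and PSMC2 second in 6 of 6 libraries. PSMD6 was above PSMD8 in 4 of 6 libraries and below it in control 3 and knockdown library 2, so that these neighbours in the order did not differ beyond their spread. Of the summed FPKM of the 4 subunits, PSMB4 made up 57.8% to 61.0% in the controls and 63.8% to 73.3% after knockdown. PSMD6 made up 9.35% to 11.7% in the controls and 5.59% to 8.16% after knockdown, also without overlap. The shares of PSMC2, at 17.3% to 25.9% and 11.9% to 23.4%, and of PSMD8, at 3.94% to 12.4% and 4.72% to 9.18%, overlapped between the groups. The 4 shares are parts of the same sum, so they are not independent of each other, and they were not tested.

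A ratio between subunits within a library is unchanged when the library is multiplied by a common factor, as with an equal FPKM sum or the median of ratios, and the way the table was made did not fix its direction. Quantile normalization is no common factor and can move such a ratio, and the ratios are given for FPKM as deposited. The 6 ratios among the 4 subunits were compared between the groups by an exact permutation test over the libraries, two-sided, in which 3 against 3 cannot give a p under 0.1. The ratio of the lid subunit PSMD6 to the core subunit PSMB4 was the one of these 6 without overlap between the groups. How often ratios between other genes of the table lack such overlap was not determined. It was 0.182, 0.202 and 0.153 in the controls and 0.120, 0.0762 and 0.120 after knockdown, each knockdown library lying below every control. On the log2 scale the ratio went from -2.49 ± 0.20 to -3.27 ± 0.38 (SD, n = 3 each), a difference of -0.78 (standard error 0.25, exact p = 0.1, the smallest possible, and 0.6 after Benjamini-Hochberg adjustment over the 6 pairs). Leaving out any 1 library, the difference stayed between -0.89 and -0.56.

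The ratio of PSMC2 to PSMB4, base against core, was 0.432, 0.448 and 0.284 in the controls and 0.366, 0.163 and 0.286 after knockdown. Control 3 lay among the knockdown libraries. The log2 difference was -0.56 (standard error 0.41, exact permutation p = 0.3, adjusted p = 0.6), beside an SD of 0.37 in the controls and 0.60 after knockdown. The lid and base subunits PSMD6 and PSMC2 varied least against each other among the 6 pairs, with ratios of 0.420, 0.451 and 0.540 in the controls and 0.329, 0.468 and 0.422 after knockdown. Their log2 ratio differed by -0.22 between the groups (standard error 0.19, exact permutation p = 0.5, adjusted p = 0.6), with an SD of 0.19 and 0.26 within the groups.

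**Figure D3:**
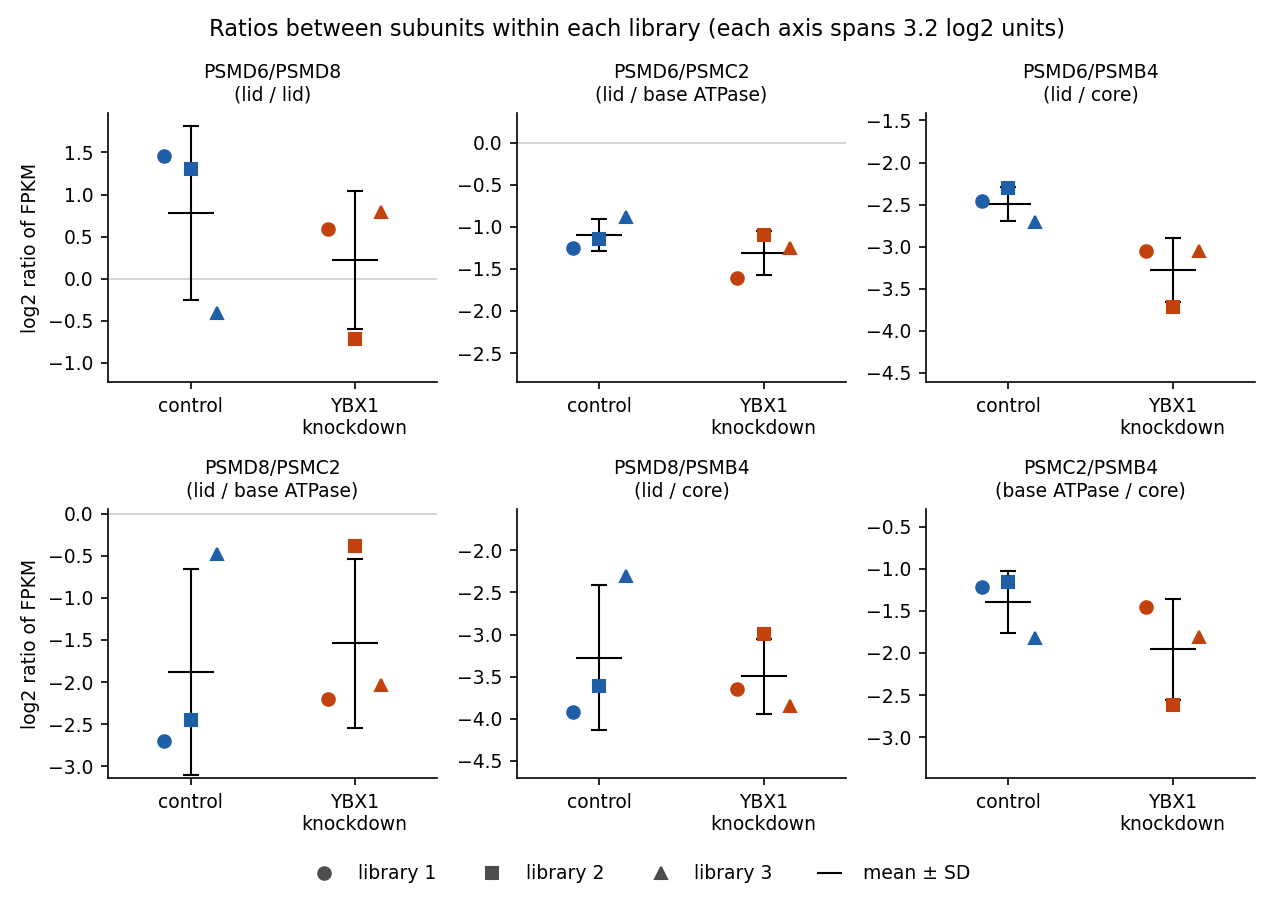
Log2 ratio of FPKM for each pair of subunits in each library, with symbols for the library number and the mean ± SD in black. Each axis spans the same range, so that spreads can be compared between panels, and PSMD6/PSMB4 is the one pair in which all knockdown libraries lie to one side of the controls.

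In the controls the 3 ratios with PSMD8 varied most, with SDs of 0.86 to 1.22 on the log2 scale against 0.19 to 0.37 for the others. After knockdown PSMC2 to PSMB4, with an SD of 0.60, varied more than PSMD8 to PSMB4, with 0.44. PSMD6 to PSMD8, within the lid, was 2.74, 2.47 and 0.754 in the controls and 1.51, 0.609 and 1.73 after knockdown, a log2 difference of -0.56 (standard error 0.76, exact permutation p = 0.5, adjusted p = 0.6). PSMD8 to PSMC2 differed by 0.34 (standard error 0.91) and PSMD8 to PSMB4 by -0.22 (standard error 0.56), with exact permutation p-values of 0.5 and 0.8. These differences had no stable direction, being -0.24 for PSMD8 to PSMC2 without knockdown library 2 and 0.27 for PSMD8 to PSMB4 without control 3. In each group the library highest in PSMD8, control 3 and knockdown library 2, was the lowest in PSMC2. It was also the lowest in PSMD6, where the controls lay close together (51.8, 55.7 and 49.5 FPKM). The same libraries were the highest of their group in the summed FPKM of 4 oocyte and early embryo markers (H1-8, LHX8, ELAVL2 and PATL2). The sum was mostly H1-8, a linker histone of the oocyte, with 680 FPKM in control 3 and 1393 FPKM in knockdown library 2. PATL2 was highest in control 3 among the controls, with 2.93, 2.78 and 4.19 FPKM in controls 1, 2 and 3. After knockdown it had 26.0, 26.1 and 23.8 FPKM, so that libraries 1 and 2 were nearly equal. LHX8 and ELAVL2 were highest in control 1 among the controls and lowest in knockdown library 2 after knockdown. The sum was 312, 230 and 729 FPKM in the controls and 1152, 1518 and 1040 FPKM after knockdown. Each of the 4 markers was called higher after knockdown, where 34.1% of all genes tested were called higher. Markers could be matched only if the authors had called them in this contrast, so this count is no separate evidence. The other 8 genes of that marker list were not analysed here, and the part of the stage or maternal share of the embryos in the subunit values was not tested. Of the 10 markers of cumulus and granulosa cells, the cells that surround the oocyte, TNFAIP6 and KITLG could be matched. Their summed FPKM was 33.2 to 78.9 in the controls and 17.9 to 25.5 after knockdown, highest in control 1. Each of these genes overlapped between the groups and neither passed (adjusted p = 0.220 for TNFAIP6 and 0.150 for KITLG from limma). TNFAIP6 alone was high in control 3, at 20.5 FPKM against 1.73 and 2.38 in controls 1 and 2 and 2.14 to 2.37 after knockdown. The part of these genes in the subunit values was not tested.

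Of 52 genes listed for the proteasome, its assembly and its activators, 18 had an identifier paired with a symbol and 6 of these were matched to the table, the 4 subunits and PSMD12 and PSMG2. PSMD12 (Rpn5), a further structural subunit of the lid, rose while PSMD6 fell. It had 99.99, 71.1 and 115 FPKM in the controls and 268, 218 and 221 FPKM after knockdown. Each knockdown library was above each control, as in 33.8% of all genes tested. Its mean rose from 95.5 ± 22.4 to 236 ± 28.2 FPKM (SD, n = 3 each). The log2 fold change was 1.32 ± 0.38 (standard error), with an adjusted p of 0.00759 from limma, where 34.1% of all genes tested were called higher, and it stayed above 1 under each scaling and without each library in turn. The ratio of PSMD6 to PSMD12 was 0.518, 0.784 and 0.429 in the controls and 0.0692, 0.0546 and 0.103 after knockdown, a log2 difference of -2.94. As single-gene changes in opposite directions were part of how these genes entered the table, this ratio is given without a test.

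PSMG2 encodes a chaperone that, with its partner PSMG1, assembles the alpha ring of the core. It had 80.9, 80.7 and 35.1 FPKM in the controls and 2.80, 5.89 and 10.7 FPKM after knockdown, from 21, 41 and 84 fragments. Control 3 was again apart, holding 0.435 of the mean of the other controls, yet it was above every knockdown library. The log2 fold change of PSMG2 was -3.21 ± 0.51 (standard error), with an adjusted p of 0.000422 from limma, a larger fall than in any of the 4 subunits. The ratio of PSMB4 to PSMG2 was 3.53, 3.42 and 9.20 in the controls and 55.2, 26.5 and 17.7 after knockdown.

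**Figure D4:**
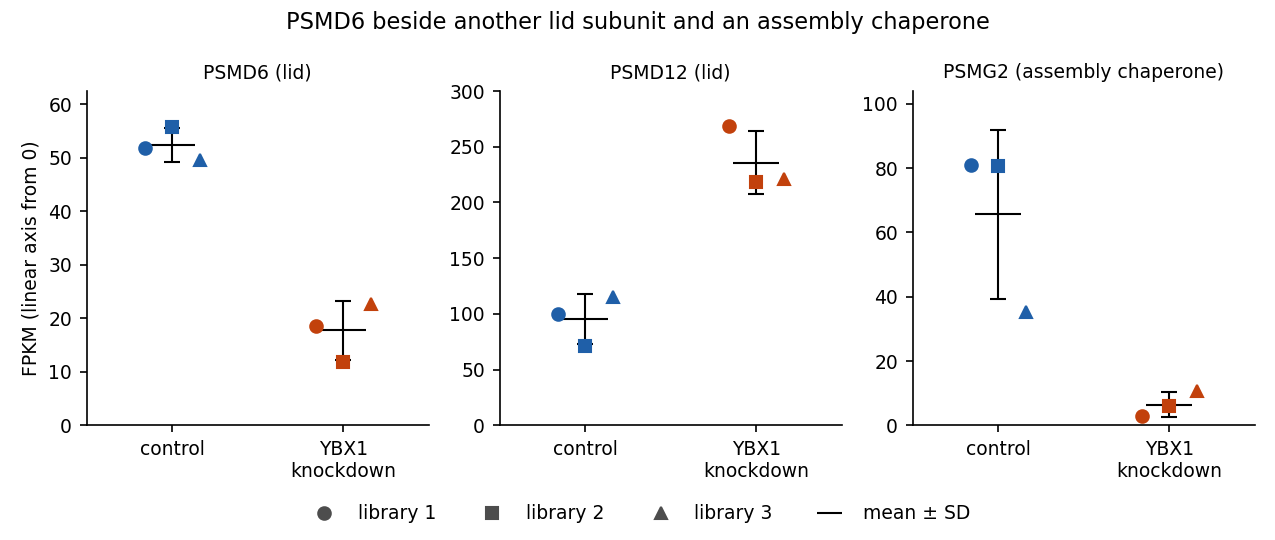
FPKM (linear axes from 0) of the lid subunits PSMD6 and PSMD12 and of the assembly chaperone PSMG2 in each library, with the mean ± SD in black. PSMD6 and PSMG2 are lower and PSMD12 is higher in every knockdown library than in every control.

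Of 151 genes listed for the ubiquitin system, which marks proteins for the proteasome, 74 had an identifier paired with a symbol and 28 were matched to the table. Of these 17 were called lower, 5 were called higher and 6 did not pass, with a median log2 fold change of -1.19 against -1.24 over all genes tested. These counts stood beside 56.2% called lower and 34.1% called higher over all genes tested, and the same shares apply to the counts of the single lists, none of which was tested against them. With PSMD12 and PSMG2 added, 18 of these 30 genes were called lower as deposited and 9, 6 and 9 with an equal FPKM sum, the median of ratios and quantile normalization, while 6 were called higher under each. Of all 4500 genes tested, 2530 were called lower as deposited and 1713, 1416 and 1434 under these scalings, in that order. Those called higher numbered 1534 as deposited and 1549 under each scaling. With FPKM as deposited, among 9 genes of the cullin-RING ligases 5 fell and 2 rose. WSB1, a substrate receptor of such ligases, had the largest fall of that list (log2 fold change -3.70), and the F-box gene FBXO25 the largest rise (1.66). Among 9 other ubiquitin ligases 6 fell and 1 rose, with RNF138 at -3.05 and MKLN1, a subunit of the CTLH ligase, at 1.44. Of 4 deubiquitinases and their cofactors USP1 and USP14 fell and WDR48 and WDR20, which activate such enzymes, rose. USP14 binds the proteasome and trims ubiquitin from its substrates, and its log2 fold change was -1.21 ± 0.48 (standard error), with an adjusted p of 0.0314 from limma. The call of USP14 was lost without any library but control 3, with log2 fold changes from -1.29 to -0.82 and adjusted p-values from 0.0507 to 0.123, and under each scaling. Control 3 was the lowest control in USP14 too, with 90.2 FPKM against 221 and 319 in controls 1 and 2 and 65.9 to 88.4 after knockdown. Of 5 genes listed under shuttles and cofactors of the segregase VCP, a wide group that also held SGTB and JKAMP, 4 fell and none rose. The largest fall was in UBXN2A (-2.95), and UBXN7, with a log2 fold change of -1.08, did not pass. The only matched gene of ubiquitin activation and conjugation, UBE2K, had -0.76 and did not pass.

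**Figure D5:**
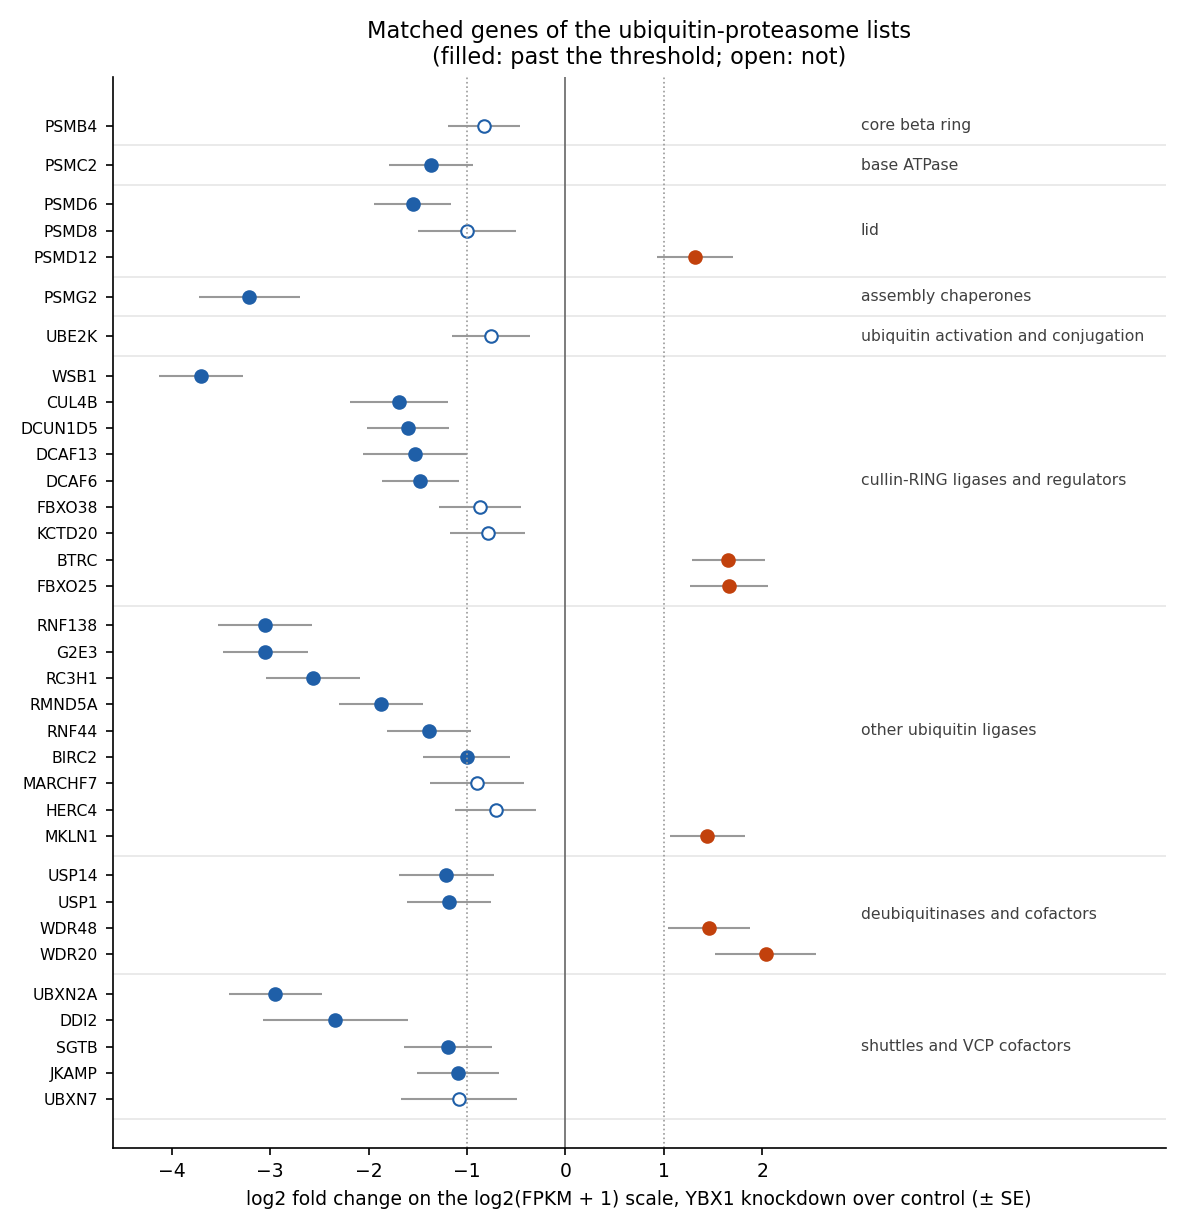
Log2 fold change on the log2(FPKM + 1) scale (± standard error from limma) of every matched gene of the proteasome and ubiquitin lists, grouped by role, with filled points for genes past the threshold and dotted lines at -1 and 1. Most genes lie to the left of 0, as most of the table does, and PSMD12, BTRC, FBXO25, MKLN1, WDR48 and WDR20 lie to the right.

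The genes with the most similar profile were sought among the 455 other genes with a symbol, by the Euclidean distance of log2(FPKM + 1), centred over the 6 libraries. PSMD6 was the gene nearest to PSMC2 (distance 0.51), and PSMC2 was ranked 3 for PSMD6, after SNF8 (0.44) and TXNL1 (0.48). TXNL1, a thioredoxin-like protein known to bind the proteasome, was also ranked 2 for PSMC2 (0.57), before TRNT1 (0.58). TXNL1 had a log2 fold change of -1.26 (adjusted p = 0.0115 from limma), and without knockdown library 2 it had -1.04 (adjusted p = 0.0523 from limma) and was no longer called. The nearest genes to PSMB4 were KCTD20 (0.25), PTPN2 (0.36) and EED (0.37), and those to PSMD8 were DCTPP1 (0.75), GOLGA5 (0.78) and CD164 (0.81). Control 3 was high in all of the latter, at 2.65, 2.40 and 2.03 times the mean of the other controls, as in PSMD8 (3.17). Without control 3, DCTPP1 (log2 fold change -0.70) and GOLGA5 (-0.71) were no longer called, and CD164 was at -0.44. No other subunit was among the 3 nearest genes of PSMD8 or PSMB4, and PSMD8 lay 1.91 from PSMD6, its partner in the lid, and 2.21 from PSMC2. The distance holds the difference between the groups, for which all genes of the table had been selected, and is a description of these 6 libraries.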

How the data were processed

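RNA was measured in 3 control and 3 YBX1 knockdown libraries, grouped and numbered by their titles. The authors trimmed reads with fastp, aligned them to goat ARS1 with HISAT2, counted uniquely mapped reads with featureCounts and deposited FPKM values, with no scaling between libraries that is stated. The deposited table also holds the authors' DESeq2 results (a log2 fold change with its p-value, raw and adjusted), which were used only to find that all 5154 genes passed an adjusted p under 0.05 and a fold threshold of 1 on the log2 scale. The analysis therefore runs on called genes alone, and genes with a symbol were also in the study's list of differential splicing events.

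Fragments were recovered as whole numbers for 5154 genes (largest distance 0.00063, tolerance 0.001), for depth only. Expression was compared with limma 3.58.1 (R 4.3.3, lmFit and eBayes with trend) on log2(FPKM + 1), which understates changes of low genes, over the 4500 genes whose FPKM averaged 1 or more. Ratios were compared with exact permutations (numpy 2.4.6, pandas 2.3.3). Scripts were tested on simulated data. Members and lists were chosen with earlier results of these data known. Named genes are the members, matched PSM genes, the largest called fall and rise of each list and the 3 nearest profiles. The few other list genes and markers named were added after their values were seen. Alternatives were another pseudocount, filter, scaling, adjustment, prior or replicate block, and leaving out each library. In RefSeq's table for ARS1.2, another version of the assembly, no annotated gene overlaps the 4 members. Sequences and coordinates were not used here.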

Additional observations from a re-analysis of the deposited data

How the results depend on the processing

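With the scalings between libraries the number of the 4 subunits called went from 2 to 0 (equal FPKM sum), 0 (median of ratios) and 1 (quantile normalization). PSMD6 was not called with an equal FPKM sum (-0.86) or the median of ratios (-0.59), nor PSMC2 with these (-0.66 and -0.38) or quantile normalization (-0.85). With the median of ratios PSMB4 (0.17), CD164 (0.20), KCTD20 (0.14), PTPN2 (0.31) and EED (0.049) turned to above 0, as did CD164 with quantile normalization (0.14) and PTPN2 with an equal FPKM sum (0.031). Of all genes tested 2530 were lower and 1534 higher. The lower genes numbered 1416 with the median of ratios and 1434 with quantile normalization, with 1549 higher in each, so that 47.8% and 48.1% of the called genes were lower instead of 62.3%, and 52.5% with an equal FPKM sum. Of the 30 other genes of the proteasome and ubiquitin lists 18 were lower, and 9, 6 and 9 with an equal FPKM sum, the median of ratios and quantile normalization. These scalings rest on genes that were mostly lower.

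Leaving out 1 library at a time, the log2 fold change ranged from -1.75 to -1.31 for PSMD6, -1.33 to -0.46 for PSMD8, -1.57 to -1.005 for PSMC2 and -0.92 to -0.76 for PSMB4. The number of subunits called ranged from 1 (without knockdown library 2) to 3 (without control 1), and that of the 30 other list genes called lower from 11 (without control 1) to 21. Over all genes tested, those called lower ranged from 2193 to 2556 in these fits. The log2 difference ranged from -0.24 to 1.04 for PSMD8/PSMC2 and from -0.54 to 0.27 for PSMD8/PSMB4, the former being -0.069 without control 1. Adjusted as if 20000 genes had been tested, PSMD6 (adjusted p = 0.0181) and PSMC2 (adjusted p = 0.0455 from limma) were still called. This wider adjustment does not undo the selection of the table's genes by the same contrast. Deviations from the group mean were only weakly correlated across genes between libraries with the same replicate number, at 0.0951, 0.140 and 0.163. Each was the highest of its control, but not all were above 0.1, and nothing in the labels pairs these libraries. A block for the replicate number gave 2542 lower and 1535 higher genes, and PSMD6, PSMD8, PSMC2 and PSMB4 had adjusted p-values of 0.00541, 0.0622, 0.0119 and 0.0482 from limma. The ratio differences were the same under this pairing, with an exact p of 0.25 at the least. Depth did not limit the 4 subunits, but PSMG2 had 21 fragments in knockdown library 1.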
